A study of Mus musculus with 14 samples.

Results

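The neural POU factors examined here are the products of 6 mouse genes, Pou3f1, Pou3f2, Pou3f3, Pou4f1, Pou4f2 and Pou4f3. The genes were chosen by name, and they are 6 of the 21938 protein-coding genes of the annotation. For each gene, H3K27me3 sites were collected over the windows of 1 kb either side of its transcription start sites (TSSs), over the gene body, and over the body with 50 kb on each side, called the surroundings below. Each place was described by the number of sites, their width and the share of bases that they covered.

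POU factors are transcription factors that bind DNA through 2 linked domains, the POU-specific domain and the POU homeodomain. Pou3f1 (also Oct6 or Scip) is known for its role in Schwann cells, the glia that form myelin in peripheral nerves, and Pou3f2 (Brn2) and Pou3f3 (Brn1) for neural progenitors and upper-layer neurons of the cortex. Pou4f1 (Brn3a) acts in sensory neurons, Pou4f2 (Brn3b) in retinal ganglion cells and Pou4f3 (Brn3c) in hair cells of the inner ear. H3K27me3, trimethylation of lysine 27 of histone H3, is set by Polycomb repressive complex 2 (PRC2) and is known from the promoters of many developmental genes in cells that do not use them, often over CpG islands.

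The cells were iMEF, immortalized mouse embryo fibroblasts in which both Ash2l alleles were floxed and could be recombined by Cre-ER. In all groups, controls included, exon 4 of the endogenous Ash2l had been deleted, and the cells lived on FKBP-HA2-ASH2L, human ASH2L with a degradable tag, delivered by lentivirus; the study describes its histone mark experiments for 1 clone, NG3. dTAG-13 was used to degrade the fusion protein, and 12 H3K27me3 ChIP-seq libraries were made, namely 2 of control cells without dTAG-13 and 2 at each of the times 30 min, 2 h, 4 h, 8 h and 16 h, beside 2 input libraries. The deposited list analysed here joins the sites of all of them, with 0 columns of values per library, so no level, spread or change with treatment could be given for any gene. The read depth behind a site is unknown, there is no replicate check, and a place without a site is not shown to lack the mark. No test was run, and counts are set beside the share of all protein-coding genes with the same property.

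All 6 genes had a wide listed site over the start. In each, exactly 1 site covered the TSS windows over their whole length (100%), which was the case for 5.44% of all protein-coding genes. This site was at least 5 kb wide in 6 of 6 genes, against 8.69% of all protein-coding genes with a site of that width at a TSS window. A site of any width at a TSS window was present for 31.5% of all protein-coding genes, and 13.5% had at least 50% of their windows covered.

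The promoter sequences of the genes are shown for their CpG dinucleotides, because the sites over the start sites stood out from the other sites in CpG content. The RefSeq promoter table for GRCm38.p6 held 4 of the 6 genes. For these the bases upstream of the start site follow, 5′ to 3′ on the coding strand, with every CG in capitals. They are the 250 bases upstream of the tabled start, except for Pou4f1, where the 131 bases outside the gene span of RefSeq are printed. The positions are chr4:22488367-22488616 on the minus strand for Pou3f2, chr1:42695518-42695767 on the plus strand for Pou3f3, chr14:104468119-104468249 on the minus strand for Pou4f1 and chr8:78436648-78436897 on the minus strand for Pou4f2.
Pou3f2 promoter: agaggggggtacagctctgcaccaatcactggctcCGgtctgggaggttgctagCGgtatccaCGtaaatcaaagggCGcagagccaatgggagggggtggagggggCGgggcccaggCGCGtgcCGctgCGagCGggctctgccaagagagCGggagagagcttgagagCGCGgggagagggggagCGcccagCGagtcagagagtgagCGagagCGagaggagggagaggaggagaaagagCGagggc
Pou3f3 promoter: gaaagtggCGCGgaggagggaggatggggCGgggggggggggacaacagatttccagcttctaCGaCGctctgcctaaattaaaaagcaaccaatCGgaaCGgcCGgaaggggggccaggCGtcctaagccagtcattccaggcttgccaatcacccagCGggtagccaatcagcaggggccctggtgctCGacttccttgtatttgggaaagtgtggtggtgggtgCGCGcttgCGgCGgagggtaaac
Pou4f1 promoter: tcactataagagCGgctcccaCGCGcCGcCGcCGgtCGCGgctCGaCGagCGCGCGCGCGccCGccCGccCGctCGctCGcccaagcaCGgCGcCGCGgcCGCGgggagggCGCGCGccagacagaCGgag
Pou4f2 promoter: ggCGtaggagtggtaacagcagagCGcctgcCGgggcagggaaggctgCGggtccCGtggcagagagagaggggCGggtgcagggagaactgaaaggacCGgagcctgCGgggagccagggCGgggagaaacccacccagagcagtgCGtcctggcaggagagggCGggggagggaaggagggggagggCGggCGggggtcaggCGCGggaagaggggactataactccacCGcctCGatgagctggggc

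The Pou4f1 promoter was the densest in CG. Its 250 upstream bases held 47 CG, a number reached by 0.25% of the 32851 promoters in the table. Those of Pou3f2, Pou4f2 and Pou3f3 held 18, 17 and 15, which 21.7%, 23.5% and 27.3% of the promoters reached, while the median promoter held 6. All 4 upstream stretches were covered by sites over 100% of their bases, as they lie inside the wholly covered TSS windows. In the 500 bp either side of the start, all 6 genes had a CpG-rich promoter (at least 50% GC, with an observed to expected CpG ratio not under 0.6). Among the 9738 protein-coding genes with such promoters, 25.5% had a site at a TSS window, 10.6% had at least 50% of their windows covered, 5.67% had wholly covered windows and 8.62% had a site of at least 5 kb there. Coverage of that extent was thus uncommon among CpG-rich promoters too.

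Examples of narrow sites, shown on the plus strand with CG in capitals, differ in CG content. The site of 200 bp at chr14:104454094-104454293 lay 13706 bp downstream of the Pou4f1 start, in an intron of the lincRNA D130079A08Rik, and held 0 CG. That at chr8:78438967-78439166 lay 2322 bp upstream of the Pou4f2 start between genes and held 4 CG, with an observed to expected CpG ratio of 0.586, near the 0.620 of the wide site over the start.
Pou4f1 narrow site: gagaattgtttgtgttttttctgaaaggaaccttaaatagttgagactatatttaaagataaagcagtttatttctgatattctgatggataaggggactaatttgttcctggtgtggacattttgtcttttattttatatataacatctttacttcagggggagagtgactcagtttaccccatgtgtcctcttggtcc
Pou4f2 narrow site: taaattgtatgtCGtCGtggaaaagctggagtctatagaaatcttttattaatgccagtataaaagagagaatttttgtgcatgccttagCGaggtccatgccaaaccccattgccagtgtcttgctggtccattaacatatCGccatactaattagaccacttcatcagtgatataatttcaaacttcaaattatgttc

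Pou3f1 (ENSMUSG00000090125.3) is a gene of 1 exon on the plus strand at chr4:124656807-124660655. The site over its start spanned chr4:124653131-124663874, or 10744 bp, from 3676 bp upstream to 7067 bp downstream, and took in the whole body (100%). The surroundings held 18 sites and were covered over 41.3% of their bases, more than in 93.8% of protein-coding genes. Coverage was one-sided, with 67.8% of the 50 kb upstream of the body and 10.4% of the 50 kb downstream. The last downstream site ended 8427 bp short of Utp11, and the windows and bodies of Utp11 and Fhl3, the next protein-coding genes on that side, had 0% covered. On the other side, the protein-coding gene 3100002H09Rik had 69.8% of its window and 54.2% of its body covered, and the nearest site between the genes ended 77 bp from it. The antisense gene Gm2164, which overlaps the Pou3f1 start, had its window covered over 100% and its body over 58.7%.

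Pou3f2 (ENSMUSG00000095139.2), likewise of 1 exon, lies on the minus strand at chr4:22482780-22488366. Its start was covered by a site of 6544 bp at chr4:22485827-22492370, which reached 4004 bp upstream and 2539 bp downstream. The site thus ended inside the gene, and with 3 further sites it left the body covered over 66.0%, the lowest share of the 6 genes. The widest site of the region, 7079 bp at chr4:22476088-22483166, ran from 5200 to 12278 bp downstream of the start, over the end of the gene and beyond. The surroundings held 16 sites and 28.2% covered bases. The start of the lincRNA Gm30731, 2182 bp upstream, fell under the same site as that of Pou3f2 (window 100%), whereas Fbxl4, the next protein-coding gene, had a window at 0% and the nearest site towards it ended 35531 bp away.

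Pou3f3 (ENSMUSG00000045515.3), also of 1 exon, lies on the plus strand at chr1:42695768-42703176. A site of 10070 bp at chr1:42691232-42701301 covered its start, reaching 4536 bp upstream and 5533 bp downstream, and 3 sites together covered 96.3% of the body. The widest site, 12668 bp at chr1:42716959-42729626, began 21191 bp downstream of the start. The surroundings held 22 sites, 5 of them of at least 5 kb, and 55.6% covered bases, with 39.0% of the 50 kb upstream and 66.2% downstream. This stretch holds noncoding genes only. Pantr2 had 93.0% of its windows and 95.6% of its body covered, the overlapping AC122898.1 had 100% and 81.4%, the divergent lincRNA Pantr1 with its 10 start sites had 46.9% of its windows covered, and Dalir had a window at 0%.

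Pou4f1 (ENSMUSG00000048349.9) has 4 exons and 2 annotated start sites on the minus strand at chr14:104461676-104467999. A single site of 12253 bp at chr14:104462849-104475101 covered both starts, and it extended farther upstream (7102 bp) than downstream (5150 bp). The body was covered over 91.0%. The surroundings had the lowest share of the 6 genes, 25.3% with 17 sites, of which 13 were under 1 kb wide. Upstream, the last site ended 1274 bp before the 3′ end of Rnf219, whose windows and body had 0% covered. Downstream, the windows of D130079A08Rik were covered over 100% and its long body over 9.67%.

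Pou4f2 (ENSMUSG00000031688.4) has 2 exons on the minus strand at chr8:78433010-78436645. It had the narrowest site over a start among the 6 genes, 5552 bp at chr8:78433290-78438841, from 2196 bp upstream to 3355 bp downstream. With a further site, 92.5% of the body was covered. The widest site, 12642 bp at chr8:78417651-78430292, lay apart from the gene, from 6353 to 18994 bp downstream. The surroundings were broken into 31 sites, 23 of them under 1 kb and 6 of the smallest width of the list (200 bp), and were covered over 38.4%. Downstream coverage (52.3%) exceeded upstream coverage (20.6%). Ttc29, on that side, had 27.1% of its windows and 29.0% of its body covered.

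Pou4f3 (ENSMUSG00000024497.4) has 2 exons and 2 annotated start sites on the plus strand at chr18:42394539-42397249. It had the widest site over a start, 13262 bp at chr18:42391035-42404296, which took in the whole body (100%) and went on 9757 bp downstream of the start. It also had the most sites (33) and the highest covered share of the surroundings, 70.1%, more than in 99.0% of protein-coding genes. Coverage was high on both sides, 60.9% upstream and 77.7% downstream. No protein-coding gene other than Pou4f3 was annotated within 50 kb, and the pseudogene Gm16415 had 73.9% of its window covered.

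**Figure D1:**
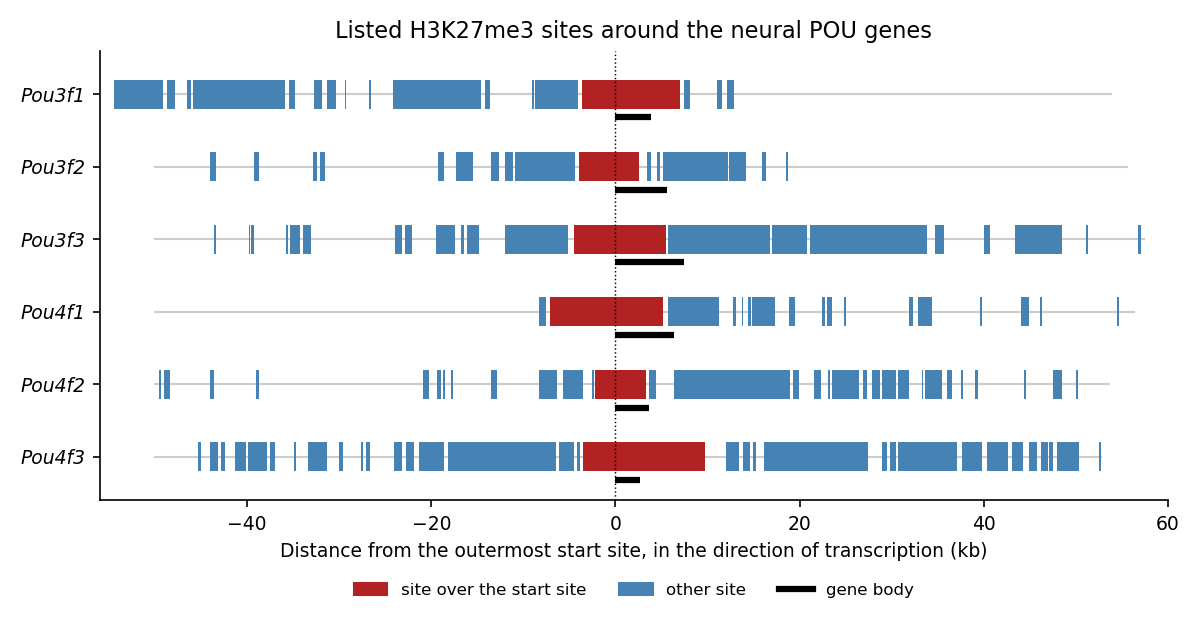
Listed H3K27me3 sites around the 6 genes, drawn to scale by distance from the outermost start site in the direction of transcription (x axis, kb; 1 row per gene). Red boxes are the site over the start site, blue boxes other sites, black bars the gene bodies and grey lines the 50 kb on each side of the body; the red box spans the start in every row, from 5552 bp in Pou4f2 to 13262 bp in Pou4f3.

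The order of the covered share of the surroundings was Pou4f3 (70.1%), Pou3f3 (55.6%), Pou3f1 (41.3%), Pou4f2 (38.4%), Pou3f2 (28.2%) and Pou4f1 (25.3%). As 1 list holds 1 value per gene, it cannot be said which neighbours in this order differ. The families interleaved, with medians of 41.3% for the Pou3f genes and 38.4% for the Pou4f genes, the values of Pou3f1 and Pou4f2. These genes, and with them the family medians, changed order when sites were joined. Over gaps under 1 kb Pou3f1 had 45.4% and Pou4f2 45.7%, and over gaps under 5 kb 60.6% and 77.6%. The median over the 6 genes was 39.9%, whereas the median over all protein-coding genes was 3.81% (quartiles 0.569 and 14.9%) and over genes with CpG-rich promoters 4.71%. The lowest of the 6 thus exceeded the upper quartile of all genes. For the gene body the median was 94.4% against 0%. A site of at least 5 kb within 50 kb was present for 6 of 6 genes, beside 27.1% of all protein-coding genes and 30.8% of those with CpG-rich promoters. This count follows from the wide sites over the starts and adds nothing to them. The body was covered over at least 50% in 6 of 6, beside 9.35% and 6.45%. The 6 bodies are short, from 2711 to 7409 bp, beside sites over the starts of 5552 to 13262 bp. Both comparisons of the body were not matched for gene length, and its part in them was not tested.

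Coverage was highest near the start and fell unevenly with distance from it. In the 5 kb upstream of the start the median over the 6 genes was 91.3% (78.1 to 100%), and in the 5 kb downstream it was 100% (66.0 to 100%), while the means over all protein-coding genes were 13.7% and 14.0%. At 10 to 20 kb the medians were 54.1% upstream and 57.9% downstream, with 11.4% and 9.55% over all genes. At 20 to 30 and 30 to 40 kb the medians were 11.2% and 20.7% upstream, and 35.6% and 34.3% downstream. At 40 to 50 kb they were 9.40% upstream (0 to 81.2%) and 10.9% downstream (0 to 77.8%), with means of 11.2% and 10.2% over all genes. Medians of 6 unlike genes and means over all genes are different measures, so no return to the background is read from them. The genes differed widely from each other away from the start. At 10 to 20 kb upstream, Pou4f3 had 95.5% covered and Pou4f1 had 0%. Upstream, Pou3f1 rose from 45.9% at 20 to 30 kb to 81.2% at 40 to 50 kb, where Pou4f1 had 0%. Downstream at 40 to 50 kb, Pou4f3 had 77.8% covered while Pou3f1 and Pou3f2 had 0%.

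**Figure D2:**
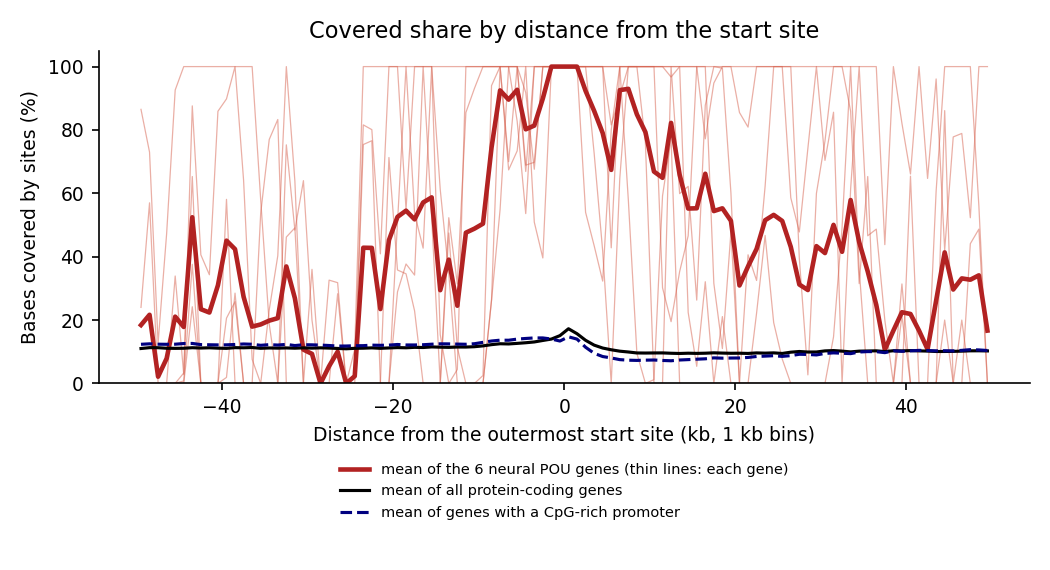
Share of bases covered by sites (y axis, %) in 1 kb bins by distance from the outermost start site (x axis, kb). The thick red line is the mean of the 6 genes and the thin red lines each gene, the black line the mean of all protein-coding genes and the blue dashed line that of genes with a CpG-rich promoter; every gene is at 100% at the start, and at 10 to 20 kb upstream the genes already run from 0 to 95.5%.

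In total, 137 sites lay in the surroundings of the 6 genes, with a summed width of 275.6 kb. The 6 sites over the starts had a median width of 10407 bp. The other 131 sites had a median of 615 bp, and 92 of them (70.2%) were under 1 kb wide, a share near the 76.7% of the whole list. Sites of at least 5 kb numbered 20, or 14.6% of the 137, whereas they made up 3.30% of the list, and they held 65.2% of the summed width. Sites of 200 bp were about as frequent (10.2%) as in the list (12.6%). The regions therefore joined a few wide sites to many narrow ones.

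The sites also stood closer together than in the list as a whole in 5 of the 6 regions. The median gap between neighbouring sites was 1218 bp over the list, and it was 432.5 bp around Pou4f3, 516 bp around Pou3f1, 726 bp around Pou3f3, 800.5 bp around Pou4f2 and 867 bp around Pou3f2. The exception was Pou4f1, with 1270 bp. With sites joined over gaps under 1 kb, the domain over the start measured 12.7 kb for Pou4f2, 17.1 kb for Pou3f1, 19.6 kb for Pou4f1, 27.7 kb for Pou3f2, 33.8 kb for Pou4f3 and 47.7 kb for Pou3f3. With a limit of 5 kb it ranged from 33.3 kb for Pou4f1 to 121.5 kb for Pou4f3. The largest gap between neighbouring sites of a region was 17786 bp, near Pou4f2, and the stretches outward of the last site are not counted as gaps.

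The sites over the starts were rich in CpG. Their ratio of observed to expected CpG was 0.738 for Pou3f3, 0.620 for Pou4f2, 0.618 for Pou3f2, 0.611 for Pou4f1, 0.546 for Pou3f1 and 0.436 for Pou4f3. For comparison, the 2007 sites of at least 5 kb over TSS windows of protein-coding genes had a median of 0.285 (quartiles 0.220 and 0.377), and the other 151871 sites on the assembled chromosomes a median of 0.190. All 6 lay above that upper quartile. The comparison was not matched for promoter class. All 6 genes have CpG-rich promoters, as had 839 of the 1906 protein-coding genes with a site of at least 5 kb at a TSS window. The remaining sites around the same genes had lower ratios when pooled by gene, from 0.226 for Pou3f1 to 0.333 for Pou4f1. In 5 genes the site over the start had the highest ratio of its region, and in Pou4f2 a site of 200 bp reached 0.664, a value that rests on few bases.

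**Figure D3:**
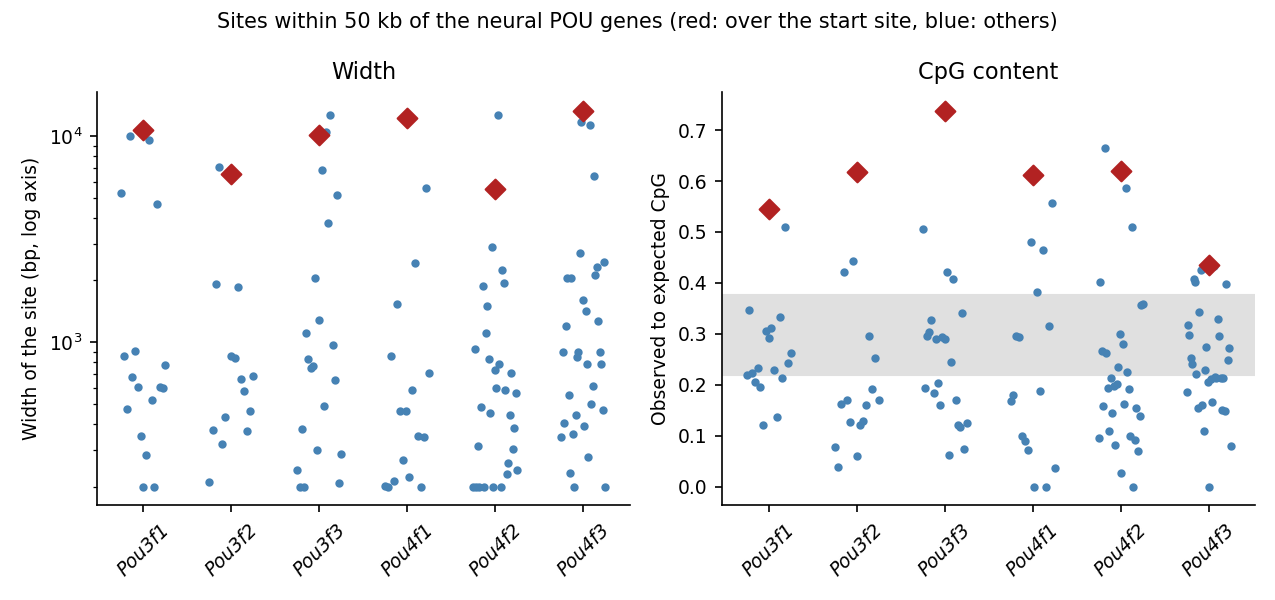
Width (left, bp on a log axis) and ratio of observed to expected CpG (right) of every site within 50 kb of each gene. Red diamonds are the sites over the start and blue points the other sites, spread sideways for legibility. The grey band spans the quartiles 0.220 to 0.377 of wide sites over start windows of any promoter class, and all 6 diamonds lie above it.

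Other POU genes were covered unevenly. Of 8 further POU genes, 6 had a site at a TSS window, 2 had at least 50% of their windows covered and 3 had a site of at least 5 kb there, beside 31.5%, 13.5% and 8.69% of all protein-coding genes. Pou3f4 (Brn4), which acts in the inner ear and in the developing brain, was nearest to the 6 at its start, where a site of 5548 bp covered its windows and its body over 100%. Its surroundings were different, with 5 sites and 6.88% covered bases. Pou2f2, a factor of B lymphocytes, had 75.7% of its windows under sites of up to 25283 bp and 41.3% of its surroundings covered, and Pou2f3, known from chemosensory tuft cells, had 33.3% of its windows covered. Pou5f1 (Oct4), the pluripotency factor, had 16.6% covered and Pou6f1 15.3%. Pou2f1 (Oct1), a widely expressed member, was touched by a single site of 200 bp (1.96% of its windows). Pou1f1, the pituitary factor, and Pou5f2 had no site at a TSS window, and Pou1f1 had 0 sites in its surroundings.

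**Figure D4:**
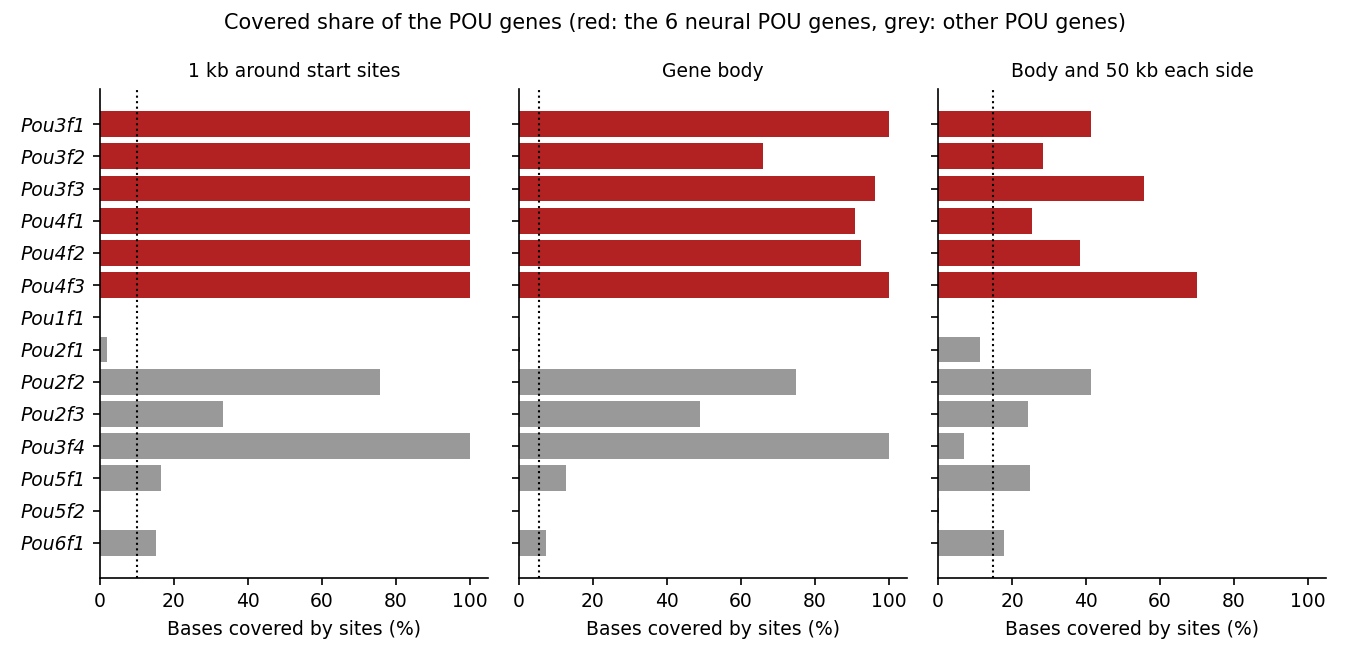
Share of bases covered by sites (x axes, %) in the windows of 1 kb around start sites, in the gene body and in the body with 50 kb on each side, for 14 POU genes. Red bars are the 6 neural POU genes and grey bars the others, and dotted lines mark the upper quartile of all protein-coding genes (9.95%, 5.40% and 14.9%); the red bars pass it in all 3 panels.

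Regulators and partners of these factors were covered in a like way. Of 9 such genes (Atoh1, Atoh7, Isl1, Neurog1, Neurog2, Sox2, Sox10, Sox11 and Tlx3), 8 had at least 50% of their windows covered and 7 had them wholly covered, beside 13.5% and 5.44% of all protein-coding genes. Atoh1, upstream of Pou4f3 in hair cells, had a site of 11019 bp over its start, and Sox10, which acts with Pou3f1 in Schwann cells, had one of 20781 bp. Sox11 was the exception, with 0 sites at its start. The median of the surroundings over the 9 genes was 30.2%.

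Target genes were more mixed. Of 10 genes described as targets (Egr2, Eomes, Gfi1, Ntrk3, Runx1, Runx3, Dll1, Crh, Avp and Oxt), 7 had a site at a TSS window, 5 had at least 50% of the windows covered and 2 had them wholly covered, beside 31.5%, 13.5% and 5.44% of all protein-coding genes. These 2 were Gfi1, a factor of hair cells, with a site of 16386 bp, and Eomes, present in the retina and cortex, with one of 5364 bp. Egr2, the myelination factor downstream of Pou3f1, had 0 sites in its surroundings. Runx1 and Oxt likewise had no site at a TSS window. The median window was covered over 55.4%, and the median of the surroundings was 10.9%.

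The related lists of LIM homeobox and proneural bHLH genes, factors that also specify neurons, gave the closest comparison. All 12 LIM homeobox genes had a site at a TSS window and 8 had wholly covered windows, and of 12 proneural bHLH genes 11 had a site and 9 had wholly covered windows, beside 31.5% and 5.44% of all protein-coding genes. Their median surroundings, 32.1% and 30.1%, were below the 39.9% of the neural POU genes, but the ranges (2.18 to 90.3% and 2.65 to 89.2%) took in all 6 values. Isl1 and 4 of the bHLH genes also belong to the regulators above. The neural POU genes were the one list of these with all members wholly covered. With 6 genes against 12 and 12 it was also the shortest, and a short list reaches all members more easily. No difference between the lists was tested.

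Genes of fibroblasts were looked up beside the label of the cells. Of 12 such genes (Col1a1, Col1a2, Col3a1, Thy1, Pdgfra, Pdgfrb, Vim, Fn1, Twist1, Twist2, Prrx1 and S100a4), 4 had a site at a TSS window and 0 had at least 50% of their windows covered, beside 31.5% and 13.5% of all protein-coding genes, so the first count was near the background and neither checks the label. The highest window share was 13.2%, for Prrx1, a homeobox gene of mesenchyme, and Vim, the intermediate filament of mesenchymal cells, had 7.61%. The median of the surroundings was 0.583%. Sites do not measure expression, so these values do not show that the genes were used.

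The genes with the most similar arrangement of sites were of several kinds. Similarity was the weighted Jaccard index of the covered share in 100 bins of 1 kb around the start, which is 1 for identical arrangements. For Pou3f1 it was highest with Kcnj11 (0.693) and Fam89a (0.691), for Pou3f2 with Slc29a4 and Skor1 (both 0.668), and for Pou3f3 with the homeobox genes Barx1 (0.728) and Irx4 (0.717). For Pou4f1 it was highest with Nlrp6 (0.690) and the homeobox gene Evx1 (0.637), for Pou4f2 with Hand2 (0.626) and Caly (0.625), and for Pou4f3 with Pax5 (0.761). The median index over genes was 0.0205 to 0.0359. Among the 6 genes themselves it ran from 0.256 (Pou3f1 with Pou4f2) to 0.605 (Pou3f3 with Pou4f3), all above these medians. No gene had another neural POU gene as its nearest. As the nearest was sought among all protein-coding genes, this says little about likeness within the 6.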

How the data were processed

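H3K27me3 ChIP-seq data of 12 iMEF libraries and 2 inputs were available as 1 deposited list of positions (chromosome, start and end), whose values are of no read-based unit. The authors used Trim Galore for trimming, BWA for alignment to mm10 (GRCm38.p6), samtools for filtering and Picard for merging, scaled libraries to the lowest coverage, called broad peaks with MACS and combined them across samples. Versions, thresholds and the rule of combination are not given in the sources used here. Columns with values per library numbered 0. The study names a minimum of raw reads planned per ChIP sample, but the depth that each library reached and its precision are unknown.

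Positions were read as counted from 0 and are printed from 1. Overlap meant at least 1 base. Genes came from GENCODE M21, an earlier release than that of the study, on the 21 assembled chromosomes, and promoters from RefSeq. Python 3.11.15 with numpy 2.4.6 and pysam 0.24.0 was used, and figures were drawn with matplotlib 3.10.9. Covered shares and site counts were checked against counting base by base on 1000 simulated cases, with 0 wrong.

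The 6 genes, their start and widest sites, annotated neighbours, the gene lists and, for each gene, the 2 genes most like it and more than 1 Mb away made up the named items, and some genes that the rule selects are not reported here or counted in the lists. Members and lists were chosen with earlier results of these data known. Alternatives were other window and flank sizes, other width limits, joined sites and the outermost start site. RefSeq gene models were added after seeing the data. Groups were not compared, since the list has no value per library.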

Additional observations from a re-analysis of the deposited data

How the results depend on the processing

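The covered share of the TSS windows was 100% for each of the 6 genes under each of 4 alternatives (24 values). Counts of genes stayed between 5 and 6 in 25 recomputed counts. The value 5 arose when only sites of at least 10 kb were counted, which left out Pou3f2. The median of the surroundings (39.9%) was 31.6% when sites under 1 kb were dropped, 45.6% after joining over gaps under 1 kb, 69.1% after joining over gaps under 5 kb, 54.8% with 25 kb on each side and 29.9% with 100 kb on each side. The median of the gene body (94.4%) was 100% with sites joined at either distance. For single genes, a value was called moved if it left the Wilson confidence interval of the main share. That interval took each 200 bp as 1 independent trial, which neighbouring bases are not. By this rule 8 of 24 values of the body moved, all to 100% with sites joined. Over all 24 the body ran from 52.4 to 100%, and the lowest, for Pou3f2 without the narrower sites, was not called moved. Of the surroundings 15 of 24 moved, and all 24 ran from 20.5 to 95.5%. RefSeq gene models, chosen after seeing the data, were run for the counts of genes with a site at a TSS window and with at least 50% of the windows covered and for the median of the body, and both counts stayed at 6. No paired analysis was possible because only positions are listed, nor could a replicate be omitted. The depth reached by each library is unknown, and a site present in few of the libraries cannot be told from one present in all.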
